A study of Mus musculus with 11 samples.

Results

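The 10 genes described here are 6 genes of the 2-cell embryo (Zscan4c, Zscan4d, Zscan4f, Zfp352, Tcstv1 and Tcstv3) and 4 genes whose names stand for developmental pluripotency associated (Dppa2, Dppa3, Dppa4 and Dppa5a). They were taken by symbol from a table of 55228 gene symbols, which held all 10. Of these, 7 had enough counts to be tested among 16420 tested genes. Zfp352, Tcstv1 and Tcstv3 did not.

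All libraries came from EN52.9.1 (CTCF-AID), a line of mouse embryonic stem cells, grown with serum and leukemia inhibitory factor. CTCF, a DNA-binding zinc finger protein, sets boundaries of chromatin loops and domains, and in this line it carries a degron through which auxin triggers its loss. EV cells without auxin (EV untreated, 3 libraries) are called wild-type in the labels although they are of the tagged line too. EV cells with 500 µM of the auxin analog indole-3-acetic acid (EV auxin, 2 libraries) are those with endogenous CTCF depleted. Cells with the same auxin treatment received either FL CTCF (FL auxin, 3 libraries) or CTCF with the H373R substitution (H373R auxin, 3 libraries, whose titles read ZF4). The length of the treatment and the promoter of the returned CTCF are not given in the sources used here. All groups are of 1 line, no auxin-treated cells without the tag were analysed here, and neither FL nor H373R cells without auxin were. The labels do not say that replicates came from separate cultures, so p-values measure the spread between these libraries only.

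Zscan4, Zfp352 and Tcstv genes are switched on when the embryonic genome is first transcribed, and in cultures of embryonic stem cells they mark a rare, passing state called 2-cell-like. The transcription factor Dux switches this programme on, and DPPA2 and DPPA4, which bind chromatin as a pair, act upstream of Dux. DPPA3 (also Stella or PGC7) is a maternal and germ cell protein that limits DNA methylation by holding back UHRF1, and DPPA5A is a KH domain protein abundant in pluripotent cells. CTCF has been described as a barrier to the 2-cell-like state, which is the question the depletion comparison bears on for these genes.

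Total counts ran from 13465241 to 29902246 per library. EV untreated replicate 1 stood apart from its group: the chi-square per degree of freedom of its counts against the other replicates was 15.5 and 14.8, against 1.93 to 4.71 for all other pairs within groups. Its deviation from its group correlated with GC content (r = 0.56 across 16242 genes, which are not independent replicates). Because the degron acts on the protein, Ctcf transcript is no check of depletion: it ranged from 294 to 344 CPM (counts scaled to library size and composition, TMM) in EV untreated, 359 to 364 in EV auxin, 328 to 350 in FL auxin and 306 to 330 in H373R auxin. Summed CPM of 8 pluripotency markers was 5226 to 5528, 5044 to 5275, 5156 to 5187 and 4944 to 5017 in the same order. Summed CPM of 8 primitive endoderm markers was 43.3 to 51.2, 44.5 to 47.7, 165 to 187 and 99.1 to 116. Summed CPM of 8 fibroblast markers was 58.8 to 66.7, 56.1 to 61.2, 77.3 to 92.4 and 72.5 to 79.5. Within that list Col1a1 (24.7 to 46.1 CPM) and Thy1 (25.1 to 36.3 CPM) had the highest levels, and Dcn, Lum and Postn were at or near 0, with 7, 3 and 4 counts over all libraries.

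The Zscan4 and Tcstv genes lie in clusters of near-identical copies, and the sequences below are shown because they limit what a count for 1 copy means. In GENCODE M21 on GRCm38, Zscan4c lies at chr7:11005745-11010547 on the plus strand, Zscan4d at chr7:11161374-11166159 on the minus strand and Zscan4f at chr7:11397915-11402318 on the plus strand, with Zscan4b, Zscan4e and the pseudogene Zscan4a in the same cluster. The coding sequences of Zscan4c and Zscan4f were identical at 1512 of 1518 bases (99.6%), and Zscan4d was 97.7% identical to each. The windows below cover positions 686 to 765 of the coding sequence, 5′ to 3′ on the coding strand, and capitals mark bases that differ from Zscan4c. They were picked as the 80 bases without gaps that hold the most differences between the copies. They are thus not typical of the whole coding sequence.
Zscan4c: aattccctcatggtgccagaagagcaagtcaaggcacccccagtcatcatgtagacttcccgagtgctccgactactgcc
Zscan4f: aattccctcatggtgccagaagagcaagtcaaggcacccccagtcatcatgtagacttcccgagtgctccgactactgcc
Zscan4d: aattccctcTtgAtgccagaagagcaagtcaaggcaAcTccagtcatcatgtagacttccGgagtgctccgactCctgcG
Zscan4e: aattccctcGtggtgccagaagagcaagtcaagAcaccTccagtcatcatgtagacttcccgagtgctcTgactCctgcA
Here Zscan4f had 0 differing bases, Zscan4d 7 and Zscan4e 6, and Zscan4b had the same 80 bases as Zscan4e. Tcstv1 (chr13:119893388-119894785, minus strand) and Tcstv3 (chr13:120316878-120318178, plus strand) were 94.5% identical in coding sequence. Their windows, picked in the same way, cover positions 425 to 504, with the 11 bases that differ from Tcstv3 in capitals.
Tcstv3: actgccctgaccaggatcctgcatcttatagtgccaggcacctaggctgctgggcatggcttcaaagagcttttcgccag
Tcstv1: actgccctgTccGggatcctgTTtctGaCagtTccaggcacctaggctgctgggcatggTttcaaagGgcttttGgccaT

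A read must cover such differences to be assigned to 1 copy. Of all 100-base windows in the longest coding transcript of each gene, 27.2% of Zscan4c, 70.4% of Zscan4d and 10.5% of Zscan4f occurred in no transcript of another gene of the annotation. The share was 92.2% for Tcstv3, 95.9% for Tcstv1 and 99.4% for Zfp352 (chr4:90218820-90225702, plus strand). How reads with several matches were counted is not given in the sources used here, so values of single Zscan4 copies are uncertain. The Zscan4 family is therefore also given as the summed count of Zscan4a to Zscan4f. If reads with several matches were dropped, they are missing from this sum too, so the level of the family is also uncertain and may be too low. The Dppa members each had a larger unique share at this length than Zscan4c, Zscan4d and Zscan4f. It was 100% for Dppa3 (chr6:122626410-122630272, plus strand) and 96.9% for Dppa5a (chr9:78367052-78368177, minus strand). For Dppa4 (chr16:48283733-48294237, plus strand) it was 83.2%, and for Dppa2 (chr16:48303908-48319723, plus strand) 76.1%. With 50-base windows these shares were lower, at 82.3%, 61.4%, 64.1% and 70.9% in that order. No member's exons overlapped an exon of another gene.

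The levels of the members spanned a wide range. Per length, as TPM (the deposited length-scaled abundance), Dppa5a was highest, with group means from 3581 to 4624. Dppa4 followed with means of 175 to 197 TPM, Dppa2 with 99.3 to 121 TPM and Dppa3 with 50.8 to 135 TPM. The 6 Zscan4 copies summed to 6.19 to 8.67 TPM, a level that may be too low if reads with several matches were dropped. Within EV untreated, FL auxin and H373R auxin, Dppa3 was below Dppa2 in every library. In EV auxin the order was the other way round, with Dppa3 at 133 and 136 TPM and Dppa2 at 120 and 123 TPM. The library ranges of Dppa5a, Dppa4, Dppa2 and Dppa3 did not overlap in any group.

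**Figure D1:**
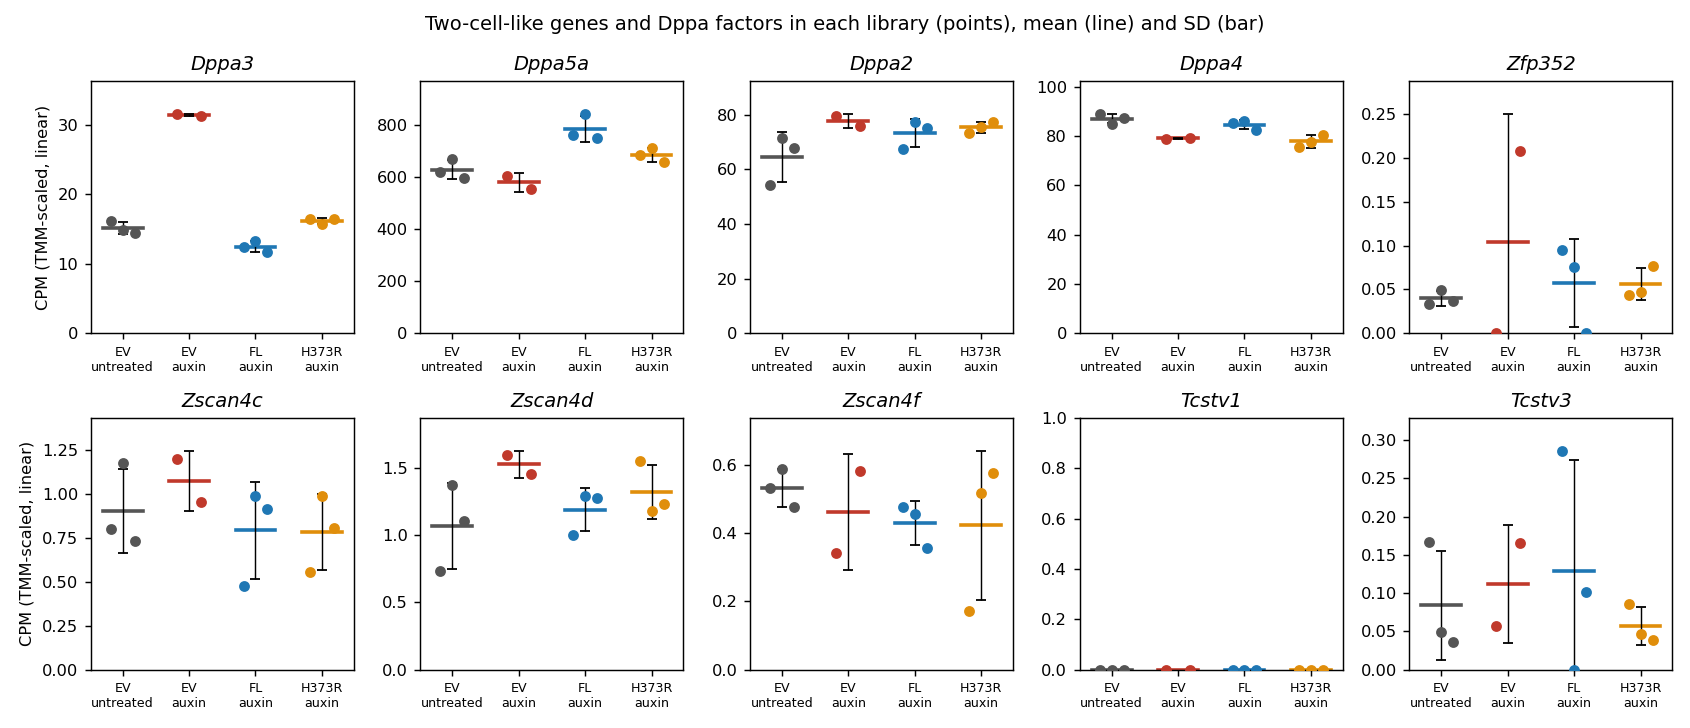
Expression of the 10 genes in each library, as CPM on a linear axis (TMM-scaled). Points are libraries, horizontal lines group means and bars the SD, with 3 libraries per group except EV auxin with 2. Both EV auxin libraries of Dppa3 lie at 31.3 and 31.5 CPM, above the other 9, and Tcstv1 is at 0 in all 11.

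Dppa3 rose on auxin in EV cells, and with FL CTCF present it was lower than in EV untreated cells. It had 16.1, 14.9 and 14.4 CPM in EV untreated, 31.5 and 31.3 in EV auxin, 12.4, 13.2 and 11.6 in FL auxin, and 16.4, 15.7 and 16.4 in H373R auxin. The EV auxin libraries stood above all others, the FL auxin libraries below all others, and the H373R auxin libraries overlapped with EV untreated. These levels rest on 174 to 755 counts per library. Dppa3 was 2.07-fold higher in EV auxin than in EV untreated (log2 fold change 1.05 ± 0.075, SE; adjusted p = 9.27e-08, edgeR's quasi-likelihood F test, Benjamini-Hochberg adjusted over all tested genes, as for all adjusted p below unless another tool is named). It was the 1 member of 7 called in this comparison, where 20.7% of all tested genes were called at an adjusted p under 0.05. In bulk RNA, a change in the share of cells that express a gene and a change in RNA per cell cannot be told apart.

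Against EV auxin, Dppa3 was 2.54-fold lower in FL auxin (log2 fold change -1.35 ± 0.080, SE; adjusted p = 6.44e-08) and 1.95-fold lower in H373R auxin (-0.96 ± 0.075, SE; adjusted p = 4.33e-06). These 2 comparisons share the EV auxin libraries. In each of them 2 of 7 members were called, Dppa3 and Dppa5a, beside 24.5% of tested genes for FL auxin and 21.7% for H373R auxin. Between the returned proteins, Dppa3 was 1.31-fold higher in H373R auxin than in FL auxin (0.39 ± 0.076, SE; adjusted p = 0.00645). It was the 1 member of 7 called there, where 5.96% of tested genes were called.

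Set against EV untreated, Dppa3 was lower in FL auxin (-0.30 ± 0.076, SE; adjusted p = 0.00669). In H373R auxin the difference from EV untreated was 0.09 ± 0.071 (SE; adjusted p = 0.328), with a 95% interval of -0.062 to 0.24. In FL auxin 2 of 7 members were called against EV untreated (36.9% of tested genes), and in H373R auxin 2 of 7 (44.4% of tested genes). The 5 calls of Dppa3 held in all 24 alternative settings run for each, with log2 fold changes of 1.01 to 1.10 for EV auxin against EV untreated and 0.34 to 0.43 for H373R auxin against FL auxin. The 1 setting that called Dppa3 in H373R auxin against EV untreated removed trends with GC content and length (0.18, adjusted p = 0.0343).

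The copy Dppa3-ps, a pseudogene of Dppa3, had 2 to 13 counts per library, so it adds little to these levels. Summed CPM of 8 primordial germ cell markers, cells in which Dppa3 is also transcribed, was 270 to 279 in EV untreated, 261 to 263 in EV auxin, 240 to 249 in FL auxin and 267 to 269 in H373R auxin. The EV auxin sums, where Dppa3 was highest, lay below those of EV untreated. FL auxin was lowest in both. Within that list Tfap2c (84.4 to 125 CPM) and Ddx4 (64.1 to 93.2 CPM) had the highest levels, and Nanos2 had 8 counts over all libraries. The part of such cells in the Dppa3 result was not tested.

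**Figure D2:**
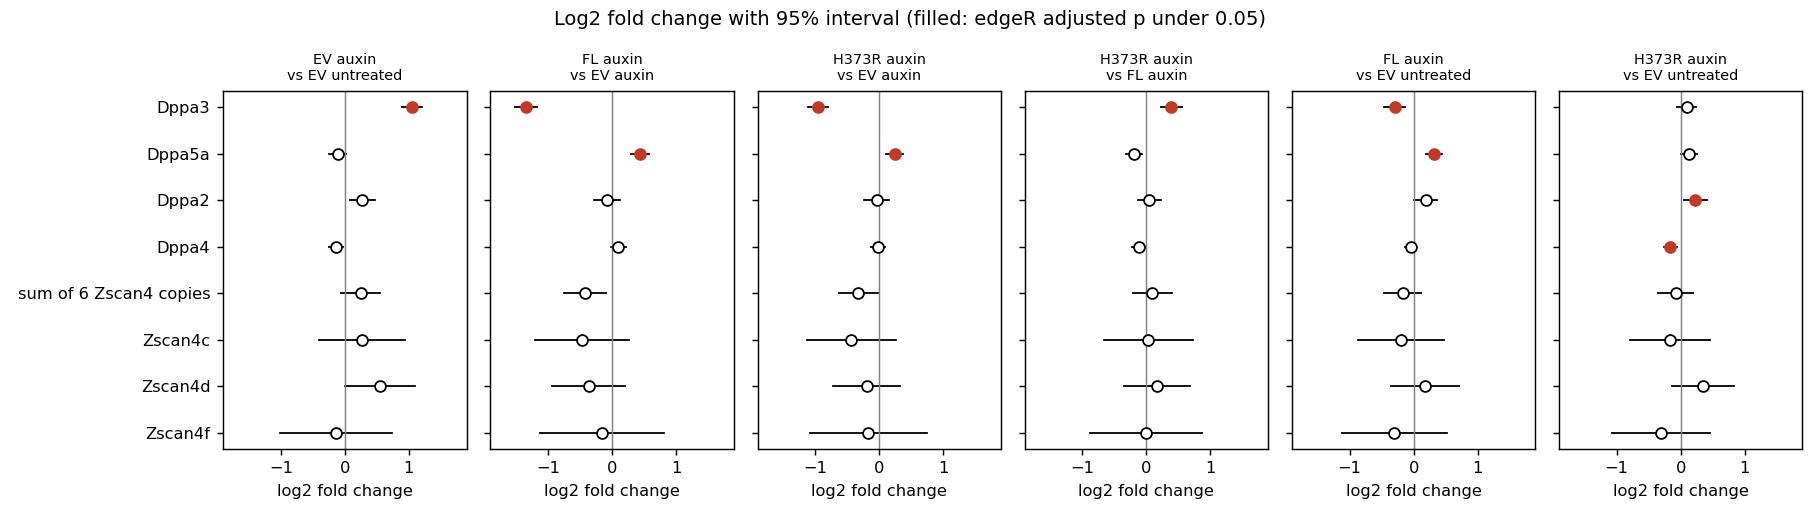
Log2 fold changes of the 7 tested members and of the summed Zscan4 copies in 6 comparisons, with 95% intervals. Filled points passed an adjusted p under 0.05. Dppa3 lies at 1.05 after auxin in EV cells, and the intervals of single Zscan4 copies are wide.

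Dppa5a, the most abundant member, was higher in FL auxin and in H373R auxin than in EV auxin, and higher than in EV untreated in FL auxin. It had 618, 667 and 597 CPM in EV untreated, 605 and 554 in EV auxin, 760, 842 and 748 in FL auxin, and 686, 711 and 657 in H373R auxin. EV untreated and EV auxin overlapped, and every FL auxin library lay above every other library. Dppa5a was 1.35-fold higher in FL auxin than in EV auxin (log2 fold change 0.43 ± 0.066, SE; adjusted p = 2.74e-04) and 1.25-fold higher than in EV untreated (0.32 ± 0.058, SE; adjusted p = 5.42e-04). In H373R auxin it was 1.18-fold higher than in EV auxin (0.24 ± 0.065, SE; adjusted p = 0.0162). That last call was lost without EV auxin replicate 2 (0.18, adjusted p = 0.197) and without H373R auxin replicate 2 (0.22, adjusted p = 0.0514). Against EV untreated, H373R auxin overlapped and gave 0.13 ± 0.058 (SE; adjusted p = 0.0912), which passed without EV untreated replicate 2 (adjusted p = 0.0307).

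Dppa5a did not pass the threshold between H373R auxin and FL auxin (-0.20 ± 0.058, SE; adjusted p = 0.0615), although the libraries of these groups did not overlap. DESeq2 called it (adjusted p = 0.0319), as did edgeR without EV untreated replicate 1 or 2, which lie outside this comparison but enter the shared spread (adjusted p = 0.00823 and 0.0443). Auxin in EV cells gave -0.11 ± 0.065 (SE; adjusted p = 0.244) with an interval of -0.25 to 0.024. Across the 11 libraries, Dppa5a and Dppa3 had r = -0.73 on log2 CPM, a description over libraries of 4 groups and no test. The copies Dppa5b and Dppa5c had at most 9 and 1 counts in any library.

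Against EV auxin the primitive endoderm markers moved in the same direction as Dppa5a. All 8 were called higher in FL auxin and in H373R auxin than in EV auxin, with median log2 fold changes of 1.80 and 1.17. In H373R auxin against EV untreated all 8 were also called higher, while Dppa5a was not called (adjusted p = 0.0912). In H373R auxin against FL auxin 5 of 8 were called lower, and Dppa5a was not called (adjusted p = 0.0615). Of all tested genes, 24.5% were called in FL auxin and 21.7% in H373R auxin against EV auxin. The share was 44.4% for H373R auxin against EV untreated and 5.96% for H373R auxin against FL auxin. Of the 4 fibroblast markers tested, 3 were higher in FL auxin than in EV auxin and 1 in H373R auxin. Of 6 trophoblast markers tested, 3 were higher in FL auxin than in EV auxin and 2 in H373R auxin. After auxin in EV cells 2 of these 6 were higher as well. The summed level of the primitive endoderm list, given above, overlapped between EV untreated and EV auxin. The part of any of these cell types in the Dppa5a and Dppa3 results was not tested.

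Dppa2 and Dppa4 are neighbours on chromosome 16, with starts 20.2 kb apart, and moved little. Dppa2 had 54.4, 71.7 and 67.8 CPM in EV untreated, 79.6 and 75.8 in EV auxin, 67.7, 77.5 and 75.3 in FL auxin, and 73.4, 75.8 and 77.5 in H373R auxin. Dppa4 had 88.9, 85.2 and 87.5 CPM in EV untreated, 79.0 and 79.3 in EV auxin, 85.3, 86.3 and 82.7 in FL auxin, and 75.5, 77.7 and 80.5 in H373R auxin. For both genes EV auxin did not overlap with EV untreated, Dppa2 lying above it and Dppa4 below it.

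After auxin in EV cells Dppa2 gave 0.27 ± 0.092 (log2, SE; adjusted p = 0.0511) and Dppa4 -0.14 ± 0.052 (SE; adjusted p = 0.0703), both short of the threshold. Of 24 alternatives, 5 called Dppa2 and 3 called Dppa4. With trends in GC content and length removed both passed, Dppa2 at 0.30 (adjusted p = 3.39e-04) and Dppa4 at -0.15 (adjusted p = 0.00743). The lowest Dppa2 value belongs to EV untreated replicate 1, and without that library the Dppa2 difference was 0.14 (adjusted p = 0.0745) while Dppa4 passed (-0.14, adjusted p = 0.0393). Dppa2 passed without EV untreated replicate 2 (0.34, adjusted p = 0.0157) and without FL auxin replicate 1 (0.27, adjusted p = 0.0451). In H373R auxin, Dppa2 was higher than in EV untreated (0.23 ± 0.082, SE; adjusted p = 0.0346) and Dppa4 lower (-0.16 ± 0.046, SE; adjusted p = 0.00946). The Dppa2 call was lost without EV untreated replicate 1 (0.11, adjusted p = 0.105) and held in 14 of 24 alternatives, and the Dppa4 call held in 23 of 24. H373R auxin against FL auxin gave 0.04 ± 0.083 for Dppa2 (SE; adjusted p = 0.827) and -0.12 ± 0.047 for Dppa4 (SE; adjusted p = 0.152). Dppa4 passed there without EV untreated replicate 1 (-0.13, adjusted p = 0.0439) and with trends in GC content and length removed (adjusted p = 0.0236).

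Since the proteins act as a pair, the ratio of Dppa2 to Dppa4 counts was taken within each library, a measure added after the values were seen. It needs no scaling between libraries and is not per length, but a trend with GC content need not cancel in it. The ratio was 0.612, 0.842 and 0.775 in EV untreated, 1.01 and 0.957 in EV auxin, 0.794, 0.898 and 0.911 in FL auxin, and 0.972, 0.975 and 0.963 in H373R auxin. Both EV auxin libraries and all H373R auxin libraries lay above every library of EV untreated and FL auxin. The lowest ratios of EV untreated and FL auxin (0.612 and 0.794) were those of replicate 1. In these libraries the deviation from the group had r = 0.56 and 0.32 with GC content, and its part in the ratio was not tested. The 6 pairs of groups were compared by two-sided exact permutation. The raw exact p was 0.1 for H373R auxin against FL auxin, for H373R auxin against EV untreated and for FL auxin against EV auxin, which is the smallest p these designs allow. The exact p was 0.2 for EV auxin against EV untreated and for FL auxin against EV untreated, and 0.7 for H373R auxin against EV auxin. After Benjamini-Hochberg adjustment over the 6 pairs the exact p-values were 0.2, 0.24 and 0.7 in that order, so none passed 0.05, and none could.

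**Figure D3:**
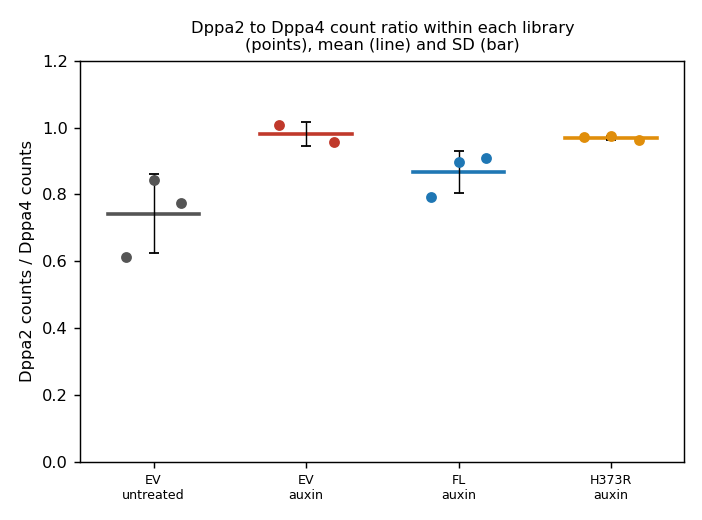
Ratio of Dppa2 to Dppa4 counts in each library, with points for libraries, lines for group means and bars for the SD. EV auxin (0.957 and 1.01) and H373R auxin (0.963 to 0.975) lie above EV untreated (0.612 to 0.842) and FL auxin (0.794 to 0.911).

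The Zscan4 genes, which encode zinc finger proteins with a SCAN domain that act at telomeres, were detected in every library with low counts. The summed 6 copies had 3.56, 4.80 and 4.0 CPM in EV untreated, 5.30 and 4.44 in EV auxin, 3.44, 3.42 and 3.93 in FL auxin, and 3.66, 4.10 and 3.81 in H373R auxin. EV auxin overlapped with EV untreated and lay above FL auxin and H373R auxin. These sums rest on 45 to 109 counts per library.

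Auxin in EV cells gave 0.25 ± 0.14 for the summed copies (log2, SE; adjusted p = 0.251), with an interval of -0.057 to 0.55, which reaches a 1.46-fold rise. FL auxin against EV auxin gave -0.42 ± 0.15 (SE; adjusted p = 0.0583) and passed in 4 of 21 alternatives, one of them the fit without EV untreated replicate 1 (adjusted p = 0.0354). H373R auxin against EV auxin gave -0.33 ± 0.15 (SE; adjusted p = 0.126), and H373R auxin against FL auxin 0.09 ± 0.14 (SE; adjusted p = 0.767).

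The single copies had few counts. Zscan4c had 10 to 24 counts per library, Zscan4d 17 to 36 and Zscan4f 4 to 16. The largest difference of a copy after auxin in EV cells was that of Zscan4d (0.55 ± 0.25, SE; adjusted p = 0.149), whose libraries at 1.60 and 1.45 CPM lay above the EV untreated range of 0.73 to 1.37 CPM. Zscan4c gave 0.27 ± 0.32 (SE; adjusted p = 0.606) and Zscan4f -0.14 ± 0.41 (SE; adjusted p = 0.854). None of the 3 copies was called in any of the 6 comparisons or under any alternative.

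Zfp352, Tcstv3 and Tcstv1 were close to or at 0. Zfp352, a zinc finger gene of the 2-cell embryo, had 1, 1 and 1 counts in EV untreated, 0 and 5 in EV auxin, 2, 1 and 0 in FL auxin, and 1, 1 and 2 in H373R auxin. Tcstv3 had 5, 1 and 1 counts in EV untreated, 1 and 4 in EV auxin, 6, 0 and 2 in FL auxin, and 2, 1 and 1 in H373R auxin. In both genes the groups overlapped, and no difference was detectable at this depth. Tcstv1 had 0 counts in all 11 libraries, which allows up to 0.0123 CPM over their 243393053 counts (3 counts, counting error only).

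A list of 61 genes of the 2-cell state other than the members gave the wider programme, with 29 of them tested. It includes Zscan4a and Zscan4e, which are also in the summed Zscan4 copies, so the list and that sum share reads. After auxin in EV cells 1 was higher and 2 were lower, 10.3% of the tested list against 20.7% of all tested genes. The median log2 fold change of the 29 was 0.25, against 0.0087 over all tested genes, and 22 of the 29 had a positive sign. Many of them had few counts and a wide SE, such as Zscan4a at 0.85 CPM in EV untreated (SE 0.31). Such genes need a larger difference to be called, so the list's share and that of all tested genes are not like for like. Zscan5b rose by 0.41 ± 0.14 (SE; adjusted p = 0.044), with 3.19 and 3.86 CPM in EV auxin against 2.64 to 2.73 in EV untreated. This call was lost in DESeq2 (adjusted p = 0.263) and in 10 of the 11 fits that left out 1 library, EV untreated replicate 1 among them (adjusted p = 0.0545). Without EV auxin replicate 2 the value was 0.24 (adjusted p = 0.556). The 2 that fell are Btg2 (-0.91 ± 0.066, SE; adjusted p = 1.11e-07), an antiproliferative gene also expressed outside the 2-cell state, and Zfp750 (-0.74 ± 0.11, SE; adjusted p = 1.85e-04), known for its role in epidermal cells.

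Against EV auxin, 2 of the 29 were higher and 3 lower in FL auxin (median -0.35), and 1 was higher and 2 were lower in H373R auxin (median -0.21). These are 17.2% and 10.3% of the list, beside 24.5% and 21.7% of all tested genes, with the same limit from few counts. Without EV untreated replicate 1 these totals of 5 and 3 became 8 and 6, without EV auxin replicate 1 they were 3 and 2, and without EV auxin replicate 2 they were 3 and 1. Zscan5b was lower in both, by -1.03 ± 0.16 (SE; adjusted p = 3.08e-04) in FL auxin and -0.90 ± 0.15 (SE; adjusted p = 6.54e-04) in H373R auxin. H373R auxin against FL auxin gave 0 of 29 by edgeR, 0 by DESeq2 and 4 at an unadjusted p under 0.05, and 1 by edgeR without EV untreated replicate 1. Duxf3, a Dux gene, had at most 4 counts in any library and was not tested.

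**Figure D4:**
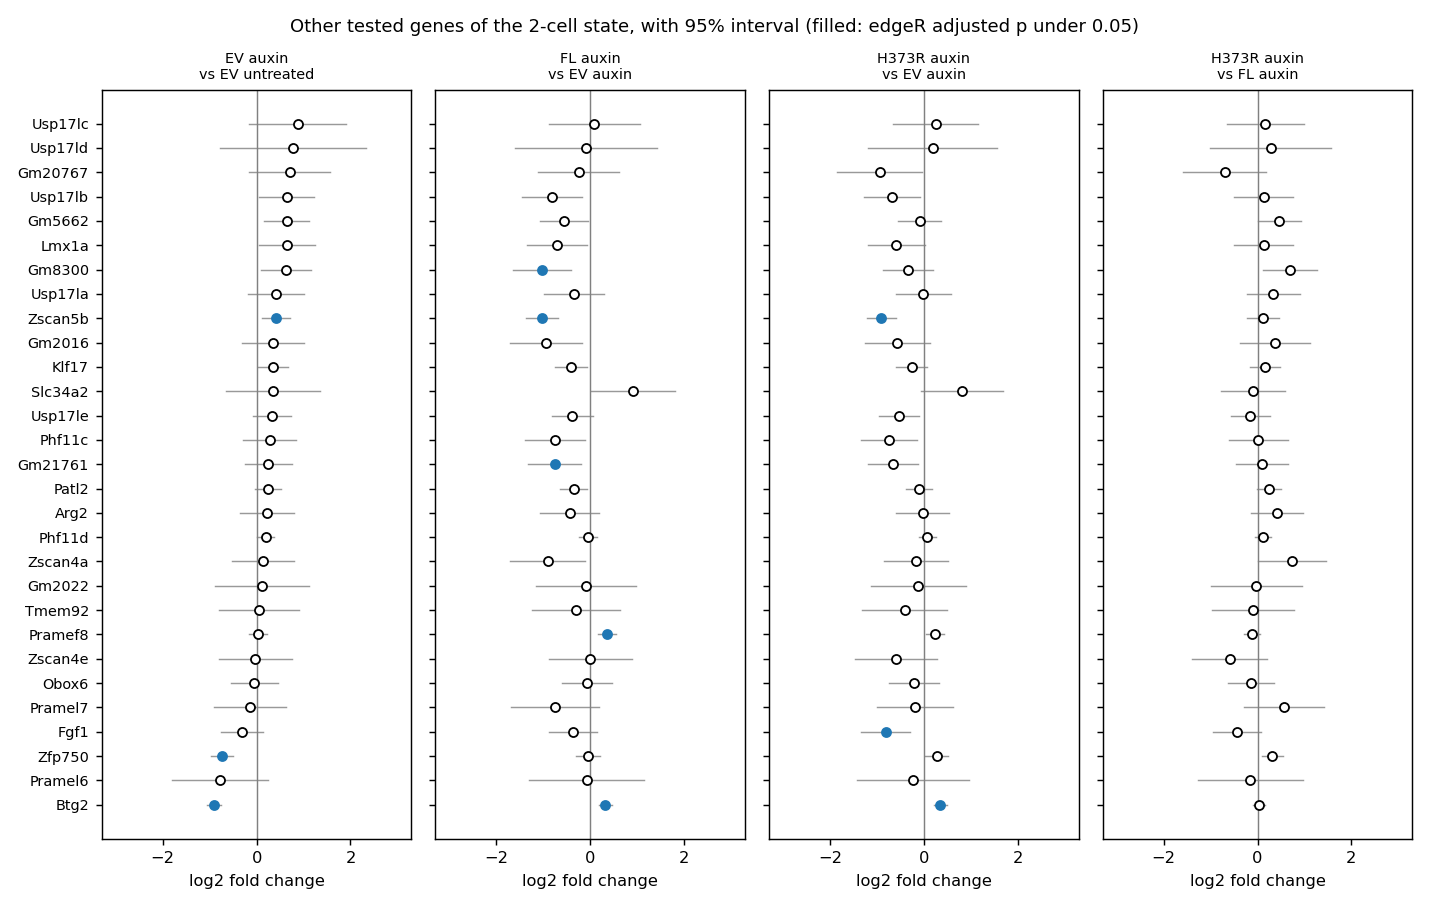
Log2 fold changes with 95% intervals of the 29 tested other genes of the 2-cell state in 4 comparisons, ordered by the change after auxin in EV cells. Filled points passed an adjusted p under 0.05, which were 3, 5, 3 and 0 genes from left to right.

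Of 9 tested activators of the 2-cell state other than members, 2 were lower and 0 higher after auxin in EV cells: Nr5a2 (-0.42 ± 0.069, SE; adjusted p = 4.82e-04) and Klf5 (-0.38 ± 0.062, SE; adjusted p = 4.20e-04), both transcription factors of pluripotent cells. The 22.2% called compare with 20.7% of all tested genes, and the fit without EV untreated replicate 1 called 5. Of 38 tested repressors, 1 was higher and 7 were lower (21.1% called), among them Kdm1a, the histone demethylase LSD1 (-0.35 ± 0.045, SE; adjusted p = 4.16e-05), Asf1a, a histone chaperone (-0.50 ± 0.074, SE; adjusted p = 1.74e-04), and Hdac1, a histone deacetylase (-0.30 ± 0.060, SE; adjusted p = 0.00228). The call of Hdac1 was lost without EV auxin replicate 2 (adjusted p = 0.0618). The 8 called repressors were 19 without EV untreated replicate 1, 4 without EV auxin replicate 1 and 3 without EV auxin replicate 2, and medians of both lists lay near 0 (-0.11 and -0.046).

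Between H373R auxin and FL auxin 1 activator was called, Gata2 (0.44 ± 0.10, SE; adjusted p = 0.0183), 11.1% of the list beside 5.96% of all tested genes. This call was lost without FL auxin replicate 3 (adjusted p = 0.113), H373R auxin replicate 2 (adjusted p = 0.0559) or H373R auxin replicate 3 (adjusted p = 0.116), each leaving 0 activators called. Without EV untreated replicate 1 the activators called were 3, and without FL auxin replicate 1 they were 2. No repressor was called by edgeR, 1 was by DESeq2, and 7 had an unadjusted p under 0.05. Without EV untreated replicate 1 the repressor count was 7.

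DPPA3 acts on DNA methylation, and 14 genes of that machinery were tested beside it. After auxin in EV cells 3 were higher and 3 lower (median 0.013), 42.9% called against 20.7% of all tested genes. The 6 calls became 9 without EV untreated replicate 1 and 3 without EV auxin replicate 2. Dnmt3b, a de novo methyltransferase, rose by 0.36 ± 0.046 (SE; adjusted p = 4.98e-05), whereas Prdm14 (-0.41 ± 0.060, SE; adjusted p = 1.70e-04) and the methylcytosine oxidase Tet2 (-0.39 ± 0.086, SE; adjusted p = 0.00437) fell. The call of Tet2 was lost without EV auxin replicate 1 (adjusted p = 0.058) and in limma with no TPM filter (adjusted p = 0.0648). Dppa3 and Dnmt3b were thus both higher in EV auxin, but Dnmt3b stayed at 200 to 223 CPM in FL auxin and H373R auxin, against 166 to 172 in EV untreated, while Dppa3 in FL auxin and H373R auxin was near or below its EV untreated level. Of 18 other naive pluripotency genes, 3 were higher and 9 lower after auxin in EV cells (66.7% called, against 20.7% of all tested genes). Fgf4 and Nr0b1, which had the smallest adjusted p of this list, were among the 9. Fgf4 had 208.8 to 227.6 CPM in EV untreated and 148.6 to 149.7 in EV auxin. Nr0b1 had 59.90 to 73.97 CPM in EV untreated and 39.85 to 40.15 in EV auxin. Klf4, next by adjusted p, was among the 3 that rose (0.35 ± 0.046, SE; adjusted p = 5.32e-05).

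Between H373R auxin and FL auxin, where Dppa3 was higher, 2 of the 14 methylation genes were lower and 0 higher (14.3%, beside 5.96% of all tested genes). Without EV untreated replicate 1 they were 5, and without FL auxin replicate 2 or 3 or H373R auxin replicate 2 or 3 they were 1. Dnmt3a differed by -0.35 ± 0.041 (SE; adjusted p = 9.01e-05) and Tet2 by -0.35 ± 0.080 (SE; adjusted p = 0.0169), the latter lost in those 4 fits (adjusted p from 0.0728 to 0.0914). Of the naive genes 3 were lower and 0 higher (16.7%), among them Fgf4 (-0.20 ± 0.045, SE; adjusted p = 0.0149) and Zfp42 (-0.18 ± 0.044, SE; adjusted p = 0.0272). The other was Tet2, which is in both lists and so was counted in each. The same 4 fits called 0 naive genes, with adjusted p of 0.0525 to 0.068 for Fgf4 and 0.077 to 0.0982 for Zfp42, and Zfp42 was also lost without H373R auxin replicate 1 (adjusted p = 0.0658).

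The genes beside Dppa3 on chromosome 6 were then listed, by a window chosen after the data were seen: 14 tested genes other than Dppa3 that start within 300 kb of its start. After auxin in EV cells 6 were higher and 1 lower (7 of 14 called, against 20.7% of all tested genes). Apobec1, 24.0 kb before the Dppa3 start, rose by 0.79 ± 0.12 (SE; adjusted p = 2.02e-04). Foxj2, 194 kb after it, rose by 0.87 ± 0.089 (SE; adjusted p = 4.39e-06). The rise of Gdf3, whose start is the nearest at 16.3 kb, was 0.26 ± 0.053 (SE; adjusted p = 0.00269). Slc2a3, 175 kb after, was lower (-0.43 ± 0.063, SE; adjusted p = 1.67e-04), and Nanog, 81.1 kb after, gave -0.09 with an adjusted p of 0.343.

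Against EV auxin, 4 of these 14 were lower and 1 higher in FL auxin, and 4 lower and 1 higher in H373R auxin (35.7% in each, beside 24.5% and 21.7% of all tested genes). The 5 calls in H373R auxin fell to 0 without EV auxin replicate 2, 2 without EV auxin replicate 1, and 3 without H373R auxin replicate 1 or 2. Apobec1, Foxj2 and Mfap5 moved down with Dppa3 in FL auxin, while Rimklb kept its raised level (-0.02 ± 0.053, SE; adjusted p = 0.780). The other gene called lower in FL auxin was Nanog (-0.35, adjusted p = 0.00107), which had not risen after auxin in EV cells. H373R auxin against FL auxin called 1 of the 14, Apobec1, in the same direction as Dppa3 (0.48 ± 0.11, SE; adjusted p = 0.0173), 7.14% beside 5.96% of all tested genes. The call was lost without FL auxin replicate 3 (adjusted p = 0.108) and without any 1 of the 3 H373R auxin libraries (adjusted p from 0.058 to 0.0652). Without EV untreated replicate 1 the window held 3 calls, and without EV untreated replicate 3 it held 2.

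**Figure D5:**
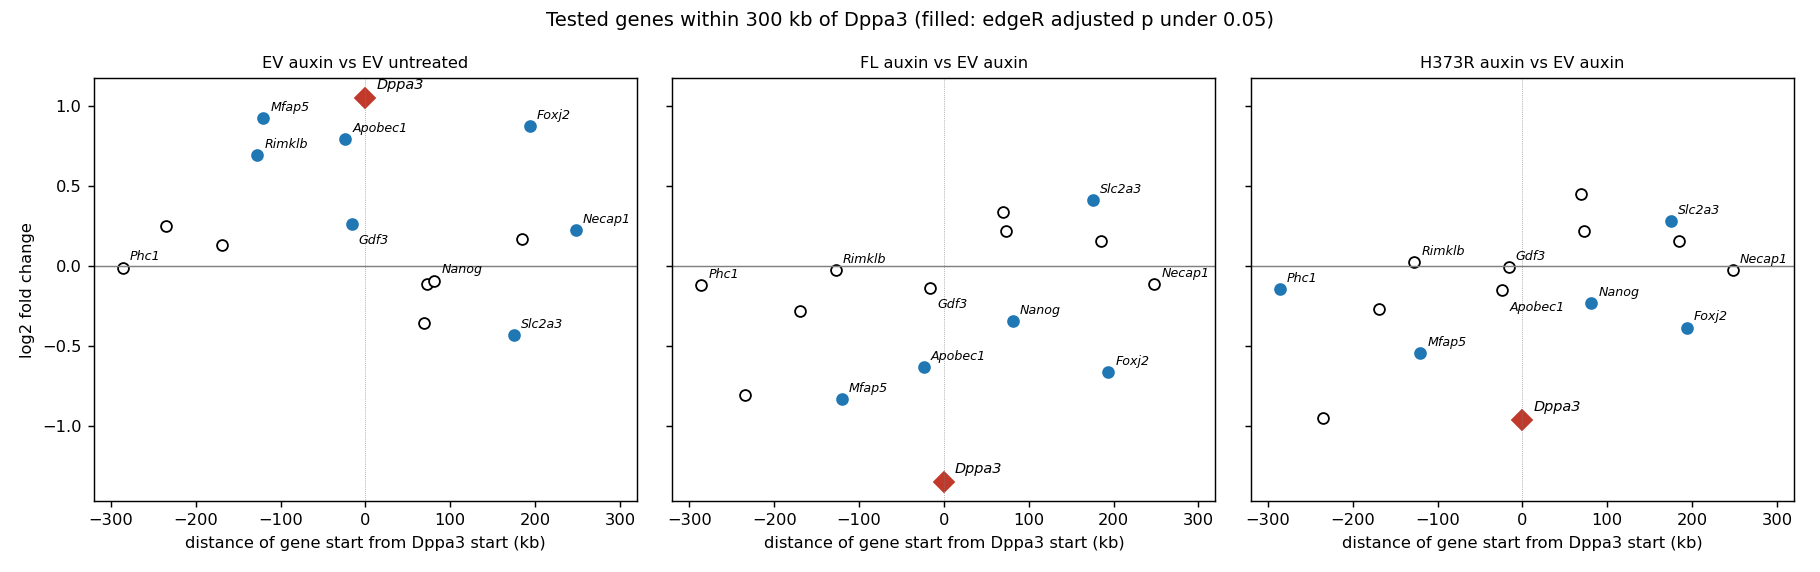
Log2 fold change against distance in kb of gene start from the Dppa3 start, for Dppa3 (diamond) and 14 tested genes within 300 kb, in 3 comparisons. Filled points passed an adjusted p under 0.05. After auxin in EV cells 6 neighbours lie above 0 and pass, and Slc2a3 passes below 0.

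At the other Dppa loci, Morc1, 127 kb from Dppa2, fell after auxin in EV cells (-0.57 ± 0.072, SE; adjusted p = 4.13e-05). Ooep, a maternal gene of the oocyte that starts 10.5 kb from Dppa5a, fell as well (-0.58 ± 0.061, SE; adjusted p = 5.92e-06), where Dppa5a gave -0.11. Of the 13 tested genes within 300 kb of Dppa5a, 4 were higher and 2 lower (46.2% called, against 20.7% of all tested genes).

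The genes most like each Dppa member across the 11 libraries were named by Pearson's r on log2 CPM among 12726 genes that averaged at least 1 on that scale. For Dppa3 these were Tarbp1 (r = 0.98), Akap1 (r = 0.97) and Lpin2 (r = 0.97). None of these lies within the window around Dppa3. For Dppa5a they were Psma3, Tuba1b and Atp5b (r = 0.97 each), for Dppa2 Phyh, Sec62 and Ap3m1 (r = 0.95 each), and for Dppa4 Cdk6, 2010204K13Rik and Tmem141 (r = 0.95, 0.95 and 0.94). The points share 4 groups, and genes were picked for the highest r, so these values are descriptions. Dppa2 and Dppa4 had r = -0.63 with each other. The pattern of Tarbp1 was smaller in size than that of Dppa3, with 0.43 ± 0.059 after auxin in EV cells (SE; adjusted p = 8.91e-05) and -0.55 ± 0.060 in FL auxin against EV auxin (SE; adjusted p = 1.52e-05).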

How the data were processed

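RNA was sequenced on an Illumina NovaSeq from column-purified RNA and directional libraries, per the labels' protocols. The authors deposited raw counts per gene symbol and TPM for the same 11 libraries; featureCounts, Subread 2.0.3, DESeq2 and the builds mm10 and GRCm38 are named in the submitters' processing notes, with no role given. GENCODE M21 (GRCm38) gave coordinates, coding sequences and exons; use of strand in counting is not given in the sources used here.

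Counts were tested with edgeR 4.0.16 (R 4.3.3): TMM scaling, filterByExpr by group, group means over all 11 libraries, quasi-likelihood F test, Benjamini-Hochberg adjustment over 16420 genes, threshold 0.05. The other groups thus lend their spread to the 2 EV auxin libraries. Scripts were tested on simulated data. Named genes are the 10 members, up to 3 per list with the smallest adjusted p in EV auxin against EV untreated and up to 3 in H373R auxin against FL auxin, and the 3 genes most like each Dppa member. Genes near Dppa3 were named after their values were seen; 1 gene in that window is not reported here. The members and lists were chosen with earlier results of these data known. Alternatives were DESeq2 1.42.0, scaling by RLE or by the upper quartile, a minimum of 10 counts or no filter, only the compared libraries, a replicate block, summed copies, limma 3.58.1 on log2(TPM + 1) or log2(TPM + 0.1) with or without a minimum of 1 TPM in 2 libraries, and each library left out. Removal of GC and length trends and an adjusted p under 0.01 were added after the data were seen.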

Additional observations from a re-analysis of the deposited data

How the results depend on the processing

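Across 24 alternatives the number of members called (1, 2, 2, 1, 2 and 2 in the order of the report) ran from 1 to 3 for EV auxin against EV untreated, 2 to 2 for FL auxin against EV auxin, 1 to 2 for H373R auxin against EV auxin, 1 to 3 for H373R auxin against FL auxin, 2 to 3 for FL auxin and 1 to 4 for H373R auxin against EV untreated. For EV auxin against EV untreated it was 2 with RLE scaling, 2 with no filter and 3 with GC and length trends removed. For H373R auxin against FL auxin it was 2 with DESeq2, no filter or only the compared libraries, and 3 with trends removed. For H373R auxin against EV auxin it was 1 at an adjusted p under 0.01 and 1 with limma without a TPM filter. For H373R auxin against EV untreated it was 1 at an adjusted p under 0.01, 1 with only the compared libraries, 1 with each limma fit and 4 with trends removed. With 1 library left out these counts ran from 1 to 2, 1 to 3, 1 to 2 and 1 to 3. The replicate block gave 2 for EV auxin against EV untreated and 2 for H373R auxin against FL auxin. The deviations of same-numbered libraries from their group means (log2 CPM over tested genes) correlated above 0.1 in 3 of 15 pairs (r from -0.087 to 0.28). Those of EV untreated and FL auxin gave r of 0.28, 0.12 and 0.096. Whether the numbers pair the samples is not settled by these values.

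Reversals of sign came from differences that were not called. With trends removed, Dppa2 in H373R auxin against EV auxin was 0.0025 and Zscan4f in H373R auxin against FL auxin 0.010. With 1 library left out, H373R auxin against FL auxin ran from -0.015 to 0.081 for Dppa2, -0.27 to 0.21 for Zscan4c and -0.34 to 0.35 for Zscan4f. H373R auxin against EV auxin ran from -0.042 to 0.0025 for Dppa4 and -0.49 to 0.31 for Zscan4f. H373R auxin against EV untreated ran from -0.19 to 0.033 for the summed Zscan4 copies, -0.34 to 0.030 for Zscan4c and -0.65 to 0.047 for Zscan4f. FL auxin against EV untreated ran from -0.37 to 0.11 for Zscan4c and -0.055 to 0.37 for Zscan4d, FL auxin against EV auxin from -0.44 to 0.33 and EV auxin against EV untreated from -0.63 to 0.14 for Zscan4f. The causes were not tested. Leaving out 1 EV auxin library leaves a lone sample, assumed to vary like the other groups. Depth limits the 2-cell genes: 4 to 36 counts per single Zscan4 copy leave wide intervals.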
